A study of Homo sapiens with 10 samples.

Results

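CREB1, CREB5 and CREM, the CRTC coactivators CRTC1, CRTC2 and CRTC3, the NR4A nuclear receptors NR4A1, NR4A2 and NR4A3, and PPARGC1A, which encodes the coactivator PGC-1α, were followed through the differentiation of human thyroid organoids. These 10 genes were chosen by symbol from the 28265 genes in the count tables, and all 10 passed the filter on low counts, which kept 21014 genes. NKX2-1GFP+ cells were sorted from the organoids and sequenced by bulk RNA-seq, with 2 libraries at each of days 16, 23, 31, 38 and 45. In all groups the cells came from 1 human embryonic stem cell line, ESIBIe003-A-6, derived from HES3, with GFP at 1 NKX2-1 allele and transgenes for NKX2-1 and PAX8 that doxycycline had switched on for a few days early in the protocol. By the study's schedule, cells on day 16 had been in basal medium and cells on day 23 in 8-br-cAMP, a cell-permeable cAMP analogue, which the labels also give for day 31. Cells on day 38 had received hrTSH, a recombinant human TSH, with dexamethasone, a glucocorticoid, in place of the analogue. Cells on day 45 had received hrTSH, dexamethasone and SB431542, which inhibits TGFβ receptor kinases. In the sample labels, cAMP is also given for day 16, and dexamethasone is missing for day 45. The schedule in the study's text puts the change to hrTSH and dexamethasone a day before day 31, whereas the labels give cAMP alone for the day 31 libraries, and the label is followed here. The study's text starts SB431542 a day before day 38 in 1 place and on day 38 in another. The day 38 labels do not name SB431542, and here too the label is followed. Time and medium changed together, so their parts in any difference below cannot be told apart. Each library pooled several wells of 1 cell line, and cells were dissociated with enzymes and sorted before lysis. Total counts ran from 7247268 to 10333933 per library, so that 3 counts corresponded to between 0.307 and 0.436 normalised counts on the CPM scale (counts scaled to a common library size).

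TSH acts on thyrocytes mainly through its receptor, Gs and cAMP. Protein kinase A then phosphorylates CREB1 and its relatives, which bind cAMP response elements in promoters, while CRTC coactivators, which salt-inducible kinases hold in the cytoplasm, enter the nucleus once those kinases are inhibited or calcineurin dephosphorylates them. NR4A1 (NUR77), NR4A2 (NURR1) and NR4A3 (NOR1) are orphan nuclear receptors and early response genes that CREB and other signals induce within hours or less. CREM encodes activators and, from an internal promoter, the short repressor ICER. PGC-1α is a CREB target that coactivates nuclear receptors and drives mitochondrial genes. Much of this control acts on phosphorylation and location of proteins, which RNA counts do not measure.

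The cAMP response element was searched in promoter windows from RefSeq (GRCh38.p14), each running from 250 bases before a start site to 50 bases from it, on both strands. The full element, TGACGTCA, was present in 1.85% of 35116 windows, and its 5-base core, TGACG, was present outside a full element in 23.4%. Windows were at hand for 8 of the 10 genes, and not for NR4A2 and CRTC2. The NR4A3 window held 4 cores and no full element, a number reached by 0.137% of windows (48 of 35116). The 250 bases before the NR4A3 start site (GRCh38.p14, chr9:99821635-99821884, plus strand) are shown because NR4A3 had the most cores of the genes searched, with each core, read as TGACG or as CGTCA on the other strand, in capitals.
NR4A3: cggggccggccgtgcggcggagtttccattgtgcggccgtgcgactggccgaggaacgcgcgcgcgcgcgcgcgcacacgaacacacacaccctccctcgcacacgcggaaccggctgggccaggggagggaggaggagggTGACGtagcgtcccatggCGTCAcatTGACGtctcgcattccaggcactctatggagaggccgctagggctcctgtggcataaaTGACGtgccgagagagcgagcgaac
The cores began 109, 91, 83 and 25 bases before the start site. The internal start region of CREM, in which transcripts of the ICER kind begin, held the full element in both of 2 overlapping windows. The 30 bases around it (GRCh38.p14, chr10:35195841-35195870, plus strand) are shown with the full element in capitals.
CREM: gagctgcacatTGACGTCAgctccgagtca
The 2 windows of NR4A1 (chr12:52022582-52022881 and chr12:52037465-52037764) held neither letter string. NR4A1 has 22 annotated transcripts and runs to chr12:52059507, and no window lay in the rest of the gene. One of 7 CREM windows, 1 CRTC3 window and 1 of 2 PPARGC1A windows held cores, and the CREB1 and CRTC1 windows and the 3 CREB5 windows held none. The PPARGC1A window with a core (chr4:24472856-24473155) lies outside the span of the gene given below. The PPARGC1A window inside that span (chr4:23881052-23881351) held no core. It does not reach 23904089, where the span of this minus-strand gene with 18 annotated transcripts begins. The NR4A monomer site, AAAGGTCA, was found in 1.22% of all windows and in 1 CREB5 window. These matches describe letters in a window and not binding. For every gene, any start site outside its windows was not searched, so an absence holds for the windows only.

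The days were compared by the quasi-likelihood test of edgeR over all 21014 genes, with Benjamini-Hochberg adjustment at a threshold of 0.05, in 1 fit of all 10 libraries. Changes below are log2 fold changes of normalised counts with their standard errors, levels are CPM with the SD of 2 libraries, and neighbouring comparisons share the libraries of a day. The p-values measure the spread between these libraries, which came from 1 cell line. From day 16 to 23, 4 of the 10 genes were called, 1 higher and 3 lower, against 10.9% of all genes tested (5.60% higher and 5.33% lower). Scaled to library size without TMM factors, 1368 genes were called higher and 1024 lower at this step, in place of 1176 and 1120. From day 23 to 31 only NR4A1 was called by this test, against 2.25% of all genes (1.58% higher and 0.666% lower). From day 31 to 38, 5 genes were called, 3 higher and 2 lower, against 15.0% (8.80% higher and 6.23% lower). Scaled to library size without TMM factors, which moved the median of all genes by -0.20 at this step, 1182 genes were called higher and 2368 lower in place of 1850 and 1310. From day 38 to 45, 4 genes were called, all higher, against 11.2% of all genes (4.85% higher and 6.35% lower, or 1142 and 1139 genes without TMM factors in place of 1019 and 1334). With the 2 days of the cAMP analogue averaged, the 3 NR4A genes were called lower than on day 16 by edgeR and none higher. Of all genes, 15.5% were called (7.69% higher and 7.81% lower). Without TMM factors the split was 1912 and 1424 genes in place of 1616 and 1642. CREB1 was at 0.32 ± 0.12 in this comparison (edgeR adjusted p = 0.0732). It was called higher by DESeq2 (0.32, adjusted p = 0.0447) and without TMM factors (0.38, edgeR adjusted p = 0.0270). Without day 16 replicate 2 CREB1 was at 0.52, and without replicate 1 at 0.16. CREM, at -0.51 ± 0.20 (edgeR adjusted p = 0.0726), was called lower with a filter of 5 CPM (-0.52, edgeR adjusted p = 0.0490). Across any of the 5 days 7 genes differed, against 36.3%. The 10 genes lay between percentiles 63.8 and 97.4 of mean level among the genes tested, and well-expressed genes are called more often. Among the 8370 genes with a mean of at least 20 CPM, 20.2, 3.99, 27.2 and 21.1% were called at the 4 steps and 59.5% on any day. In the same genes 26.9% were called for the mean of days 23 and 31 against day 16. The share was 47.8% for the mean of days 38 and 45 against that of days 23 and 31, and 40.8% for day 45 against day 16. The median log2 fold change of the 10 genes at the 4 steps was -0.07, 0.19, 0.07 and 0.45, beside medians of all genes from -0.02 to 0.00.

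**Figure D1:**
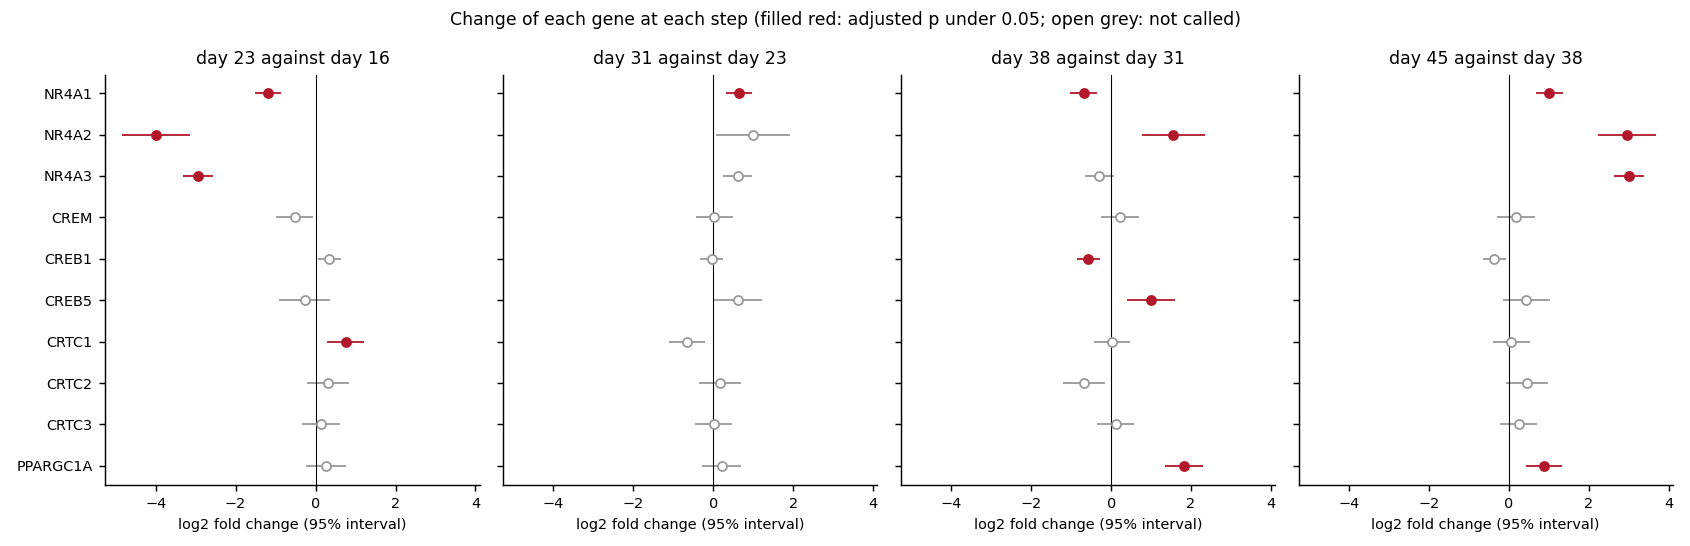
Log2 fold change of each of the 10 genes (x axis) with its 95% interval at each of 4 successive steps, from edgeR on 2 libraries per day; filled red points passed an adjusted p of 0.05. All NR4A genes lie left of 0 from day 16 to 23 and right of 0 from day 38 to 45, and PPARGC1A moves from day 38.

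NR4A2 and NR4A3 were high on day 16, low from day 23 to 38 and high again on day 45, and NR4A1 also fell to day 23 and rose to day 45. NR4A3 stood at 227 and 182 CPM on day 16, 23.9 and 29.5 on day 23, 41.6 and 39.7 on day 31, 27.0 and 39.2 on day 38, and 291 and 244 on day 45. All 4 libraries of days 16 and 45 lay above all 6 libraries between them, by more than 4-fold between the closest pair. NR4A3 fell by 2.94 ± 0.18 (log2, SE) from day 16 to 23 (edgeR adjusted p = 8.0e-14) and rose by 3.01 ± 0.18 from day 38 to 45 (edgeR adjusted p = 6.3e-14). Between those steps it changed by 0.60 ± 0.18 to day 31 and by -0.30 ± 0.18 to day 38, and neither passed the test (edgeR adjusted p = 0.0780 and 0.317), although the first was called without either day 16 library (0.0471 and 0.0397) and had an adjusted p of up to 0.475 without 1 of the others.

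NR4A2, known as a factor of dopaminergic neurons and also as an early response gene elsewhere, had the widest range of the 10 genes between the highest and the lowest daily mean. It stood at 46.9 and 34.4 CPM on day 16, 0.443 and 4.69 on day 23, 6.45 and 3.61 on day 31, 14.8 and 15.1 on day 38, and 123 and 110 on day 45. The 2 libraries of day 45 were above all others, and those of day 16 above all of days 23 to 38. The fall to day 23 was by 3.99 ± 0.42 (edgeR adjusted p = 1.0e-08), but its size rests on few counts, since the day 23 libraries held 4 and 41 reads of NR4A2. Without the day 23 replicate with 4 reads the change was -3.11, and without the one with 41 reads it was -6.47. NR4A2 rose by 1.56 ± 0.38 from day 31 to 38 (edgeR adjusted p = 0.00374) and by 2.95 ± 0.36 from day 38 to 45 (edgeR adjusted p = 1.8e-07). The first of these rises was not called by DESeq2 (adjusted p = 0.231) or without day 31 replicate 2 (1.21, edgeR adjusted p = 0.134). From day 23 to 31 the change was 0.99 ± 0.45 (edgeR adjusted p = 0.386), and this value rests on the day 23 libraries, being 3.47 and called without the replicate with 41 reads and 0.11 (edgeR adjusted p = 0.974) without the one with 4 reads.

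The summed level of 7 neuron markers was 103 ± 1.66 CPM on day 16, 127 ± 6.61 on day 23, 180 ± 9.15 on day 31, 169 ± 13.6 on day 38 and 113 ± 2.04 on day 45. MAP2 was the most abundant of them in 9 of the 10 libraries. From day 31 to 38, when NR4A2 rose, SNAP25, a synaptic gene, rose by 2.78 ± 0.50 (edgeR adjusted p = 8.5e-05) and TUBB3, a tubulin gene, by 1.20 ± 0.37 (edgeR adjusted p = 0.0219), while SYT1 fell by 1.38 ± 0.32 (edgeR adjusted p = 0.00203). From day 38 to 45 MAP2 fell by 1.64 ± 0.17 (edgeR adjusted p = 1.4e-08), the one call among the 7. ELAVL3, a neuronal RNA-binding protein gene, had 1 read on day 16 and 80 reads on day 45, each over both libraries, and none of the 7 was at 0 in the libraries of days 31 to 45. The part of neurons in the NR4A2 levels was not tested.

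NR4A1, the most abundant NR4A transcript, had a narrower range of 2.36-fold and an intermediate level on day 31. It stood at 503 and 299 CPM on day 16, 194 and 159 on day 23, 276 and 271 on day 31, 179 and 161 on day 38, and 378 and 308 on day 45. The 2 libraries of day 16 spread more than those of any other day, and the lower one was close to the libraries of day 31 and below the day 45 libraries. NR4A1 fell by 1.19 ± 0.16 from day 16 to 23 (edgeR adjusted p = 2.3e-06), rose by 0.64 ± 0.16 to day 31 (edgeR adjusted p = 0.0254), fell by 0.69 ± 0.16 to day 38 (edgeR adjusted p = 0.00252) and rose by 1.01 ± 0.16 to day 45 (edgeR adjusted p = 2.8e-05). The rise to day 31 was lost when any of the 4 libraries of days 23 and 31 was left out, with adjusted p from 0.0634 to 0.427. Without day 16 replicate 1, whose level was the highest, the fall to day 23 was by 0.75 and was still called, whereas without day 16 replicate 2 it was by 1.51. An antisense gene, NR4A1AS, covers 10.3% of the exon bases of NR4A1, and since the strand setting of the counting is not given in the sources used here, its reads cannot be told apart there.

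Days 16 and 45 were compared after their levels had been seen. NR4A2 was higher on day 45 than on day 16 by 1.51 ± 0.33 (edgeR adjusted p = 0.00062, but DESeq2 adjusted p = 0.181). NR4A1 differed by -0.23 (95% interval -0.55 to 0.10, edgeR adjusted p = 0.337) and NR4A3 by 0.38 (0.05 to 0.72, edgeR adjusted p = 0.0932). Leaving out either day 16 library decided 2 of these results. NR4A1 was called lower, by 0.56, without day 16 replicate 2 and stood at 0.18 without replicate 1, and NR4A3 was called higher, at 0.54 (edgeR adjusted p = 0.0427), without replicate 1 and stood at 0.23 (edgeR adjusted p = 0.454) without replicate 2. In this comparison 4 of the 10 genes (3 higher and 1 lower) and 24.6% of all genes (12.9% higher and 11.7% lower, or 2348 and 2879 genes without TMM factors in place of 2721 and 2454) were called. Among genes with a mean of at least 20 CPM, 40.8% were called.

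The summed level of the 3 receptors was 647 ± 185 CPM on day 16, 205 ± 17.6 on day 23, 319 ± 6.51 on day 31, 218 ± 4.19 on day 38 and 726 ± 92.0 on day 45. The makeup of this sum differed between its 2 high days. NR4A1 gave 64.8 and 58.0% of it in the libraries of day 16, between 74.7 and 88.8% in the 6 libraries of days 23 to 38, and 47.8 and 46.5% on day 45. NR4A2 gave 15.5 and 16.6% on day 45 and at most 7.04% in any other library. In bulk samples, more cells with a transcript and more of it per cell cannot be told apart.

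Since dissociation and sorting can themselves induce early response genes, 18 such genes were followed in the same libraries, 17 of which could be tested. Their summed level was 7582 ± 1278 CPM on day 16, 6821 ± 334 on day 23, 7854 ± 226 on day 31, 7341 ± 446 on day 38 and 5689 ± 280 on day 45, with EGR1 the most abundant in all 10 libraries. The fall of the sum to day 45 lay in its largest members, since EGR1 and FOS together lost more CPM than the sum did. From day 38 to 45, 6 of the 17 rose and 6 fell, with a list median of 0.33. EGR1 was at 2126 ± 139 CPM on day 38 and 1081 ± 72.4 on day 45. FOS was at 1460 ± 82.8 CPM on day 38 and 360 ± 30.9 on day 45, and fell by 2.02 ± 0.11 (edgeR adjusted p = 5.7e-15), while NFKBIA rose by 1.49 and ATF3 by 0.98. At the step from day 16 to 23, 4 of the 17 rose and 3 fell, with a list median of 0.02, and those that fell were NFKBIA (-1.42), FOSB (-0.90) and ATF3 (-0.85). FOSB, a FOS relative, was at 1005 ± 301 CPM on day 16, 538 ± 6.70 on day 23, 456 ± 18.5 on day 31, 388 ± 12.5 on day 38 and 680 ± 37.7 on day 45, and rose by 0.81 ± 0.14 at the last step (edgeR adjusted p = 4.8e-05). FOSB was thus high, low and higher again, like NR4A3, whereas EGR1 and FOS were lowest on day 45. From day 23 to 31, when NR4A1 rose, 7 of the 17 rose and 0 fell, with a list median of 0.43, among them MYC (1.37), ZFP36 (1.25) and NFKBIA (0.87). From day 31 to 38, 2 rose and 2 fell, with a list median of -0.07. At day 16 the library with the higher NR4A1 level also had the higher EGR1 level, 2689 against 1615 CPM. The part of dissociation in the NR4A levels was not tested.

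Endothelial and immune markers were also lower in sum on day 23 than on day 16 and highest on day 45. The libraries of day 16 spread widely and overlapped those of days 31 and 38. The summed level of the 5 genes was 17.5 ± 10.6 CPM on day 16, 4.87 ± 2.81 on day 23, 10.0 ± 3.29 on day 31, 14.5 ± 5.09 on day 38 and 40.9 ± 1.84 on day 45. CD68, a lysosomal protein gene used as a macrophage marker, was the most abundant in 9 of the 10 libraries. It fell by 2.07 ± 0.46 from day 16 to 23 (edgeR adjusted p = 0.00208) and rose by 2.15 ± 0.43 from day 38 to 45 (edgeR adjusted p = 0.00053), the 2 calls among the 5 genes at the 4 steps. CD68 was at 12.1 ± 6.17 CPM on day 16, 8.11 ± 4.72 on day 38 and 36.2 ± 0.359 on day 45. PTPRC, the pan-leukocyte marker CD45, was at 5.10 ± 4.26 CPM on day 16 and at 0.290 ± 0.411 on day 45. PECAM1, an endothelial marker, was at 0 in all libraries of days 16, 23 and 31 and at 1.13 ± 0.568 CPM on day 45. The part of these cells in the NR4A levels was not tested.

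**Figure D2:**
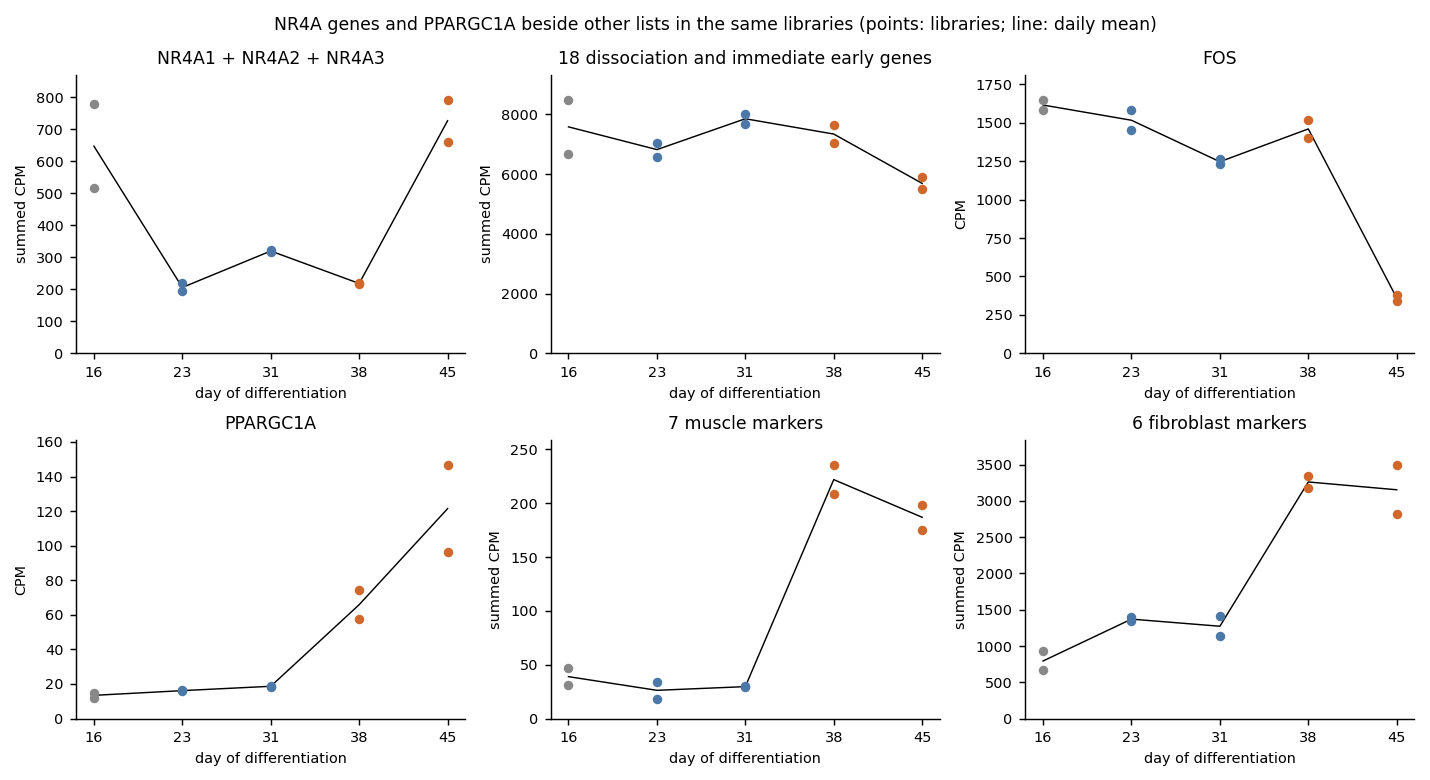
Summed CPM or CPM of single genes (y axes, from 0) in each library against day of differentiation (x axes); points are libraries and lines join daily means. The NR4A sum rises to 726 CPM on day 45 while the dissociation gene sum, led by EGR1, and FOS are at their lowest; PPARGC1A, the muscle markers and the fibroblast markers are higher on days 38 and 45 than before.

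PPARGC1A rose in 2 steps after the change to hrTSH and dexamethasone, 9.06-fold between the lowest and the highest daily mean. It stood at 11.8 and 15.0 CPM on day 16, 16.3 and 16.0 on day 23, 18.9 and 18.4 on day 31, 57.6 and 74.2 on day 38, and 96.3 and 147 on day 45. All libraries of days 38 and 45 lay above all earlier ones, and those of day 45 above those of day 38, with the 2 libraries of day 45 the furthest apart. The rise from day 31 to 38 was 1.82 ± 0.23 (edgeR adjusted p = 3.5e-07) and that from day 38 to 45 was 0.88 ± 0.22 (edgeR adjusted p = 0.00598). The second step was not called without day 45 replicate 2 (0.55, edgeR adjusted p = 0.272) or without day 38 replicate 1 (0.71, edgeR adjusted p = 0.175). Between days 16 and 31 neither weekly step passed the test. The difference from day 16 was 0.27 on day 23 (95% interval -0.24 to 0.77, edgeR adjusted p = 0.571) and the difference from day 23 was 0.21 on day 31 (-0.28 to 0.70).

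PPARGC1A is also expressed in muscle, and markers of other cells moved over the same days. The summed level of 7 muscle markers was 38.9 ± 11.1 CPM on day 16, 26.2 ± 10.9 on day 23, 29.6 ± 0.781 on day 31, 222 ± 19.0 on day 38 and 187 ± 16.7 on day 45. Of the 7, 4 rose from day 31 to 38, and from day 38 to 45 the list median was -0.22 and none passed the test, the lowest being MYL7 (edgeR adjusted p = 0.336). MYH6, a cardiac myosin, was the most abundant from day 31 with 92.5 ± 7.61 CPM on day 38, and none was at 0 in the libraries of days 38 and 45. The sum of 6 fibroblast markers was 1273 ± 196 CPM on day 31, 3262 ± 113 on day 38 and 3154 ± 480 on day 45, with COL3A1 the most abundant and none at 0. Of these 6, 3 rose and 1 fell from day 31 to 38, and 3 rose from day 38 to 45.

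Other markers were called higher from day 38 to 45, at the second step of PPARGC1A. The sum of 4 hepatocyte markers was 147 ± 15.9 CPM on day 31, 85.9 ± 30.1 on day 38, and 219 and 208 in the libraries of day 45, with ALB or AFP the most abundant on the last 2 days and none at 0 there. Of these 4, 2 fell from day 31 to 38, and ALB (1.49 ± 0.29, edgeR adjusted p = 0.00031) and AFP (1.20 ± 0.28, edgeR adjusted p = 0.00287) rose from day 38 to 45. The sum of 7 airway and goblet cell markers was 40.7 ± 12.4 CPM on day 31, 68.6 ± 11.6 on day 38 and 127 ± 37.6 on day 45. Of these 7, MUC5B (2.25 ± 0.45, edgeR adjusted p = 0.00053) and KRT5 (1.57 ± 0.49, edgeR adjusted p = 0.0309) rose from day 38 to 45 and MUC5AC fell by 4.30 ± 0.73 (edgeR adjusted p = 6.2e-05), while 2 had risen and 1 had fallen from day 31 to 38. MUC5AC was the most abundant of them on day 38 and MUC5B on day 45, and SCGB1A1, a club cell marker, was at 0 in 3 of the 4 libraries of these days. CD68 rose at this step too, as given above.

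NKX2-1, by which the cells were sorted, was at 86.9 ± 4.36 CPM on day 16, 154 ± 3.70 on day 31, 143 ± 15.0 on day 38 and 62.4 ± 6.12 on day 45, and PAX8 was between 503 ± 37.1 and 650 ± 110 CPM, with reads of the transgenes not told apart from those of the endogenous genes. The sum of 11 thyroid markers was 1794 ± 306 CPM on day 16, 2045 ± 8.61 on day 31, 7780 ± 548 on day 38 and 9779 ± 183 on day 45, led by the thyroglobulin gene TG from day 38, which alone was at 5211 ± 475 CPM on day 38 and 7744 ± 310 on day 45. From day 38 to 45, 2 of the 11 rose and 4 fell, with a list median of -0.23, and those that fell were IYD (-1.33), NKX2-1 (-1.20), HHEX (-0.86) and FOXE1 (-0.82). The part of muscle, fibroblast, hepatocyte, airway, endothelial and immune cells in the results for PPARGC1A, and for CREB5 below, was not tested.

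Of the CREB factors themselves, CREB1 and CREB5 moved in opposite directions and CREM was not called at any step. CREB1, the broadly expressed activator, stood at 164 and 211 CPM on day 16, 229 and 247 on day 23, 241 and 221 on day 31, 148 and 163 on day 38, and 120 and 121 on day 45. Every library on the cAMP analogue was above every other library, and those of day 45 were the lowest of the 10. CREB1 fell by 0.57 ± 0.14 from day 31 to 38 (edgeR adjusted p = 0.00365), a call lost without day 31 replicate 1 (edgeR adjusted p = 0.0671) or day 38 replicate 1 (0.0888). Between the mean of days 38 and 45 and that of days 23 and 31, 5 of the 10 genes (4 higher and 1 lower) and 29.9% of all genes were called. The split of all genes was 16.1% higher and 13.7% lower, or 2463 and 4275 genes without TMM factors in place of 3391 and 2883. Without TMM factors CRTC1 and CRTC2 were also called lower, as given below. Among genes with a mean of at least 20 CPM, 47.8% were called. CREB1 was lower in this comparison, by a log2 value of -0.78 ± 0.10 (edgeR adjusted p = 1.2e-07), a call kept without any 1 of the 10 libraries. The change of -0.37 ± 0.14 from day 38 to 45 did not pass (edgeR adjusted p = 0.0984) unless either day 16 library was left out (0.0335 and 0.0397, against up to 0.492 without 1 of the others), nor did that of 0.34 ± 0.14 from day 16 to 23 (edgeR adjusted p = 0.118), which was called without day 16 replicate 2 (0.54, edgeR adjusted p = 0.0176) and was 0.19 without day 16 replicate 1 (edgeR adjusted p = 0.517).

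CREB5, a relative of ATF2 that binds the same element, was the least abundant of the 10 genes per kilobase on days 16, 38 and 45. It stood at 12.4 and 14.4 CPM on day 16, 9.09 and 13.1 on day 23, 17.5 and 16.3 on day 31, 27.1 and 40.3 on day 38, and 38.6 and 52.3 on day 45. The libraries of days 38 and 45 lay above all earlier ones but overlapped each other. CREB5 rose by 0.99 ± 0.30 from day 31 to 38 (edgeR adjusted p = 0.0181), a call lost without TMM factors (0.78, edgeR adjusted p = 0.0723) and without day 31 replicate 1 (0.0869), day 31 replicate 2 (0.118) or day 38 replicate 2 (0.364). The mean of days 38 and 45 exceeded that of days 23 and 31 by 1.51 ± 0.21 (edgeR adjusted p = 6.9e-07), and this call was kept without any 1 library. The change to day 45 was 0.43 ± 0.29 (edgeR adjusted p = 0.408).

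CREM is a cAMP-inducible gene through its internal promoter. Its gene count sums all isoforms, ICER included. CREM stood at 41.8 and 51.0 CPM on day 16, 31.1 and 33.4 on day 23, 32.3 and 33.3 on day 31, 36.9 and 39.6 on day 38, and 38.6 and 47.7 on day 45. The libraries on the cAMP analogue were the 4 lowest of the 10. The change from day 16 to 23 was -0.52 ± 0.23 (95% interval -0.99 to -0.06, edgeR adjusted p = 0.152), and the test over any day gave an adjusted p of 0.200. Exons of CUL2 on the other strand cover 3.35% of the exon bases of CREM.

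Of the CRTC coactivators, only CRTC1 was called over any day (edgeR adjusted p = 0.0337). CRTC1 stood at 42.2 and 28.4 CPM on day 16, 57.2 and 61.7 on day 23, 38.2 and 37.2 on day 31, 38.2 and 38.5 on day 38, and 41.2 and 38.8 on day 45. The day 23 libraries were thus the highest, those of day 16 spanned all of days 31, 38 and 45, and the libraries of days 31, 38 and 45 lay within 37.2 to 41.2 CPM. CRTC1 rose by 0.75 ± 0.23 from day 16 to 23 (edgeR adjusted p = 0.0248), a call lost in a fit of only the 4 libraries compared (edgeR adjusted p = 0.0560) and without day 16 replicate 2 (0.49, edgeR adjusted p = 0.256) or either day 23 library (0.0786 and 0.157). Its change of -0.66 ± 0.22 from day 23 to 31 was not called (edgeR adjusted p = 0.150).

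CRTC2, the CRTC best known from the fasting liver, had daily means from 25.7 ± 4.26 CPM on day 38 to 41.2 ± 0.659 on day 31. Its change from day 31 to 38 was -0.68 ± 0.26 (edgeR adjusted p = 0.0770), which was called without TMM factors (-0.90, edgeR adjusted p = 0.0141), in a fit of only the 4 libraries compared (edgeR adjusted p = 0.0321) and without either day 16 library, and which was -0.52 without day 38 replicate 2. CRTC3 had daily means from 36.0 ± 1.29 CPM on day 16 to 51.2 ± 12.4 on day 45, and the libraries of day 45, at 60.0 and 42.4 CPM, overlapped those of days 23, 31 and 38. Over any day neither CRTC2 (edgeR adjusted p = 0.198) nor CRTC3 (edgeR adjusted p = 0.385) was called. The largest fold between daily means was 1.68 for CRTC1, 1.60 for CRTC2 and 1.42 for CRTC3. From the mean of days 23 and 31 to that of days 38 and 45, CRTC1 changed by -0.27 ± 0.16 (edgeR adjusted p = 0.206). CRTC2 changed by -0.36 ± 0.18 (edgeR adjusted p = 0.139). Without TMM factors both were called lower, CRTC1 at -0.45 (edgeR adjusted p = 0.0298) and CRTC2 at -0.54 (edgeR adjusted p = 0.0219).

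Levels of different genes were set side by side per kilobase of merged exons (GENCODE 44). NR4A1 was highest of the 10 on every day, from 23.3 CPM per kb on day 38 to 55.0 on day 16. At day 45 the 3 NR4A genes led, with 47.0 CPM per kb for NR4A1, 42.3 for NR4A3 and 28.2 for NR4A2, followed by PPARGC1A at 11.2, CREB1 at 9.96 and CRTC2 at 9.84. At day 23 the order was NR4A1 at 24.2 CPM per kb, CREB1 at 19.7, CRTC2 at 10.2 and CRTC1 at 8.54, while NR4A2 was last at 0.624. PPARGC1A was at rank 9 of 10 on day 16 and at rank 4 on day 45. On merged exons the ranges of the NR4A1 and NR4A3 libraries overlapped on day 45, but with the longest transcript as length their means were 70.9 and 46.8 CPM per kb and the ranges did not overlap. With the longest transcript 22 of the 50 ranks changed, by at most 2 places, but not the first place of NR4A1 on any day.

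The 10 genes lie on 9 chromosomes (GRCh38, GENCODE 44), NR4A2 and CREB1 both on chromosome 2. NR4A1 is at chr12:52022832-52059507 on the plus strand, NR4A2 at chr2:156324437-156342348 on the minus strand and NR4A3 at chr9:99821855-99866891 on the plus strand. PPARGC1A is at chr4:23755041-23904089 on the minus strand, CREB1 at chr2:207529737-207605988 and CREB5 at chr7:28299321-28825894, both on the plus strand. Counts were summed over the exons of each gene.

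Of the 13 other CREB and ATF factors and acetyltransferases tested, 2 rose and 0 fell from day 16 to 23, and 0 rose and 1 fell (CREB3L2, -0.64) from day 23 to 31. From day 31 to 38, 1 rose and 4 fell, and from day 38 to 45, 2 rose and 0 fell. CREBBP, the CREB-binding acetyltransferase, was at 316 ± 15.7 CPM on day 16, 626 ± 7.83 on day 23, 558 ± 8.91 on day 31, 318 ± 8.01 on day 38 and 389 ± 34.6 on day 45. It was highest on the 2 days of the cAMP analogue, rising by 0.99 ± 0.12 from day 16 to 23 (edgeR adjusted p = 1.6e-07) and falling by 0.81 ± 0.12 (edgeR adjusted p = 3.0e-06) from day 31 to 38. Its paralogue EP300 fell by 0.42 ± 0.12 from day 31 to 38 (edgeR adjusted p = 0.0107) and rose by 0.36 ± 0.12 from day 38 to 45 (edgeR adjusted p = 0.0371). ATF1, the closest relative of CREB1 and CREM, was at 39.4 ± 1.46 CPM on day 38 and 79.5 ± 15.1 on day 45, a rise of 1.02 ± 0.22 (edgeR adjusted p = 0.00127). Thus ATF1 and CREB1 had their highest and lowest daily mean, respectively, on the same day.

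Among the kinases and phosphatases that act on CREB and the CRTCs, 19 of 20 could be tested, and SIK1, which has a near-identical copy in GRCh38, had 0 counts in all 10 libraries. From day 31 to 38, 5 of the 19 rose and 0 fell, with a list median of 0.09. They were the protein kinase A subunits PRKACB (1.12 ± 0.19, edgeR adjusted p = 3.1e-05), PRKAR2B (0.93) and PRKAR2A (0.64) and the calcineurin catalytic subunits PPP3CB (0.91) and PPP3CA (0.70). From day 16 to 23, 1 rose and 1 fell. At day 45 PKIA, an inhibitor of protein kinase A, fell by 1.30 ± 0.31 from 26.9 ± 0.315 CPM to 10.9 ± 0.203 (edgeR adjusted p = 0.00371), and SIK2 rose by 0.62 ± 0.16 (edgeR adjusted p = 0.00718).

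The CREB target list held 32 tested genes, of which 5 rose and 7 fell from day 16 to 23, 7 rose and 0 fell to day 31, 7 rose and 4 fell to day 38, and 13 rose and 7 fell to day 45. Their median log2 fold change at the last step was 0.77, and 8 genes of this list are also in another list, the dissociation list included. The summed level of the list, led by EGR1, fell at that step, from 7316 ± 335 CPM on day 38 to 5840 ± 244 on day 45, its lowest day. The targets did not move as 1 block. SST, which encodes somatostatin and carries a well-known cAMP response element, was at 137 ± 23.6 CPM on day 16, 965 ± 77.4 on day 23, 1054 ± 98.4 on day 31, 17.5 ± 4.38 on day 38 and 35.8 ± 16.9 on day 45. It rose by 2.82 ± 0.18 from day 16 to 23 (edgeR adjusted p = 1.6e-13) and fell by 5.90 ± 0.22 from day 31 to 38 (edgeR adjusted p = 1.4e-20), and NR4A2 and NR4A3 moved the opposite way at the first of these steps. VGF, a neuropeptide precursor, was at 1.82 ± 0.479 CPM on day 16, 28.6 ± 1.88 on day 31 and 0.445 ± 0.135 on day 38. PDE4B, a cAMP phosphodiesterase, rose by 3.01 ± 0.33 from day 16 to 23 (edgeR adjusted p = 2.0e-08). KLF4 and RGS2 fell at that step by 2.57 and 2.39. At day 45 GEM rose by 2.95 ± 0.30 (edgeR adjusted p = 4.0e-09), KLF4 by 2.65 ± 0.21 (edgeR adjusted p = 4.1e-11) and EREG by 2.58 ± 0.40 (edgeR adjusted p = 1.9e-05). GEM was at 9.89 ± 0.980 CPM on day 38 and 76.9 ± 8.14 on day 45.

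**Figure D3:**
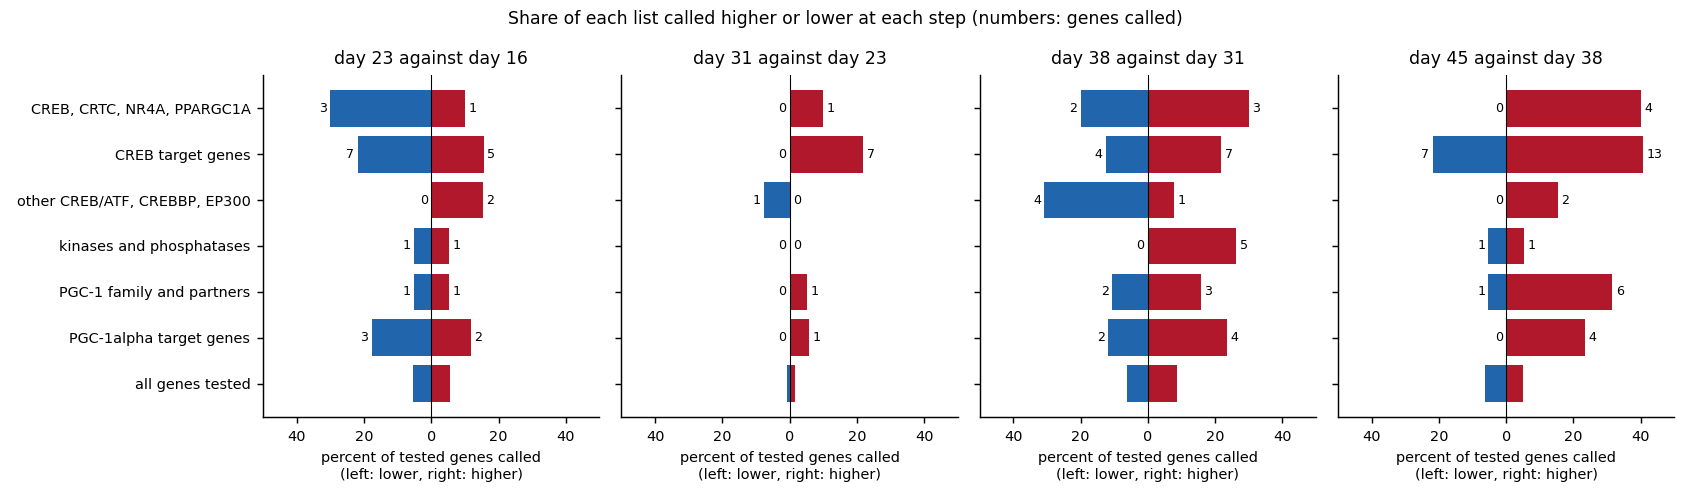
Percent of the tested genes of each list (x axis, lower to the left, higher to the right) called at each of 4 steps by edgeR at an adjusted p of 0.05, with the number of genes beside each bar and all genes tested in the bottom row. The CREB target list has calls on both sides at 3 of the 4 steps, and 13 of its 32 genes were higher on day 45.

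The retinoid X receptors, with which NR4A1 and NR4A2 can pair, had a median log2 fold change of 1.68 from day 23 to 31 and of -1.41 from day 31 to 38, with 1 call among the 3 genes at the 4 steps. RXRG was at 4.78 ± 0.452 CPM on day 23, 15.4 ± 4.46 on day 31 and 5.78 ± 1.91 on day 38. It fell by 1.41 ± 0.49 from day 31 to 38 (edgeR adjusted p = 0.0451), and the change of 1.68 ± 0.49 to day 31 was not called (edgeR adjusted p = 0.0644). RXRB had at most 23 reads on any day over both libraries. RXRA, the most abundant, had daily means from 48.0 ± 4.39 to 65.5 ± 3.39 CPM. Of 10 glucocorticoid target genes, 4 rose and 0 fell from day 23 to 31, both labelled with cAMP, with a list median of 0.41. They were MT2A (4.18), CEBPD (1.45), SGK1 (0.84) and ERRFI1 (0.77). Of the same 10 genes, 5 rose and 0 fell from day 31, labelled with cAMP, to day 38, labelled with dexamethasone, among them FKBP5 from 36.9 ± 4.04 to 149 ± 10.4 CPM, by 2.02 ± 0.23 (edgeR adjusted p = 4.0e-08).

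The family and partners of PGC-1α were represented by 19 genes. From day 31 to 38, 3 rose and 2 fell, and from day 38 to 45, 6 rose and 1 fell. PPARG, the nuclear receptor of adipogenesis, rose by 2.03 ± 0.59 at the first of these steps (edgeR adjusted p = 0.0153). At the second PPRC1, a PGC-1 relative, rose from 41.8 ± 5.71 to 98.1 ± 1.01 CPM, by 1.23 ± 0.21 (edgeR adjusted p = 4.8e-05), MEF2D rose by 1.03 ± 0.21 (edgeR adjusted p = 0.00074) and the deacetylase gene SIRT1 rose by 0.84 ± 0.16 (edgeR adjusted p = 0.00022), while MEF2C fell by 0.80 ± 0.26 (edgeR adjusted p = 0.0391).

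Of 17 target genes of PGC-1α, 4 rose and 2 fell from day 31 to 38, and 4 rose and 0 fell from day 38 to 45. In the first of these steps the respiratory chain and ATP synthase genes COX4I1, COX5B and ATP5F1B rose by 0.78, 0.72 and 0.51, while PDK4, which restrains glucose oxidation, fell by 1.13 and TFAM, the mitochondrial transcription factor, fell by 0.58. In the second step both turned, with PDK4 up by 0.98 ± 0.17 (edgeR adjusted p = 7.9e-05) and TFAM up by 0.58 ± 0.18 (edgeR adjusted p = 0.0347). SOD2, a mitochondrial superoxide dismutase that inflammatory signals also induce, rose from 102 ± 10.2 to 275 ± 5.63 CPM, by 1.44 ± 0.15 (edgeR adjusted p = 9.6e-09), and CYCS, cytochrome c, from 81.3 ± 6.77 to 167 ± 8.92 CPM, by 1.04 ± 0.16 (edgeR adjusted p = 1.2e-05). The median over the 17 genes was 0.21 and 0.07 at the 2 steps.

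The genes whose profiles lay closest were found by the root mean square difference of centred log2 CPM over 10 libraries among 13114 genes with a mean of at least 5 CPM, as a description. For NR4A3 they were DUSP5, a phosphatase of ERK, at 0.43, LSMEM1 at 0.43 and KLF4 at 0.46 log2 units, and for NR4A2 they were DUSP5 at 0.96, LSMEM1 at 1.02 and FOSL1, an AP-1 subunit, at 1.03. NR4A2 thus shared its 2 closest genes with NR4A3, at a larger distance. For NR4A1 they were NAF1 at 0.22, the pseudogene FKBP1AP1 at 0.24, whose reads can be shared with FKBP1A, and AHNAK at 0.24. For CREB5 they were ERO1B at 0.18, ESYT2 at 0.20 and RRAGD at 0.23, and for PPARGC1A TMEM181 at 0.30, IGFBP4 at 0.32 and GPNMB at 0.32. CREB1, CREM and the 3 CRTC genes had a range of daily mean log2 CPM below 1 and were not matched.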

How the data were processed

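NKX2-1GFP+ cells were sorted and sequenced as low-input libraries, 2 per day on 5 days. The deposited values are raw gene counts for 28265 symbols, which the authors made by trimming (Trimmomatic), alignment to GRCh38 (HISAT2) and counting (HTSeq), without normalization. No strand setting or molecular identifier is given in the sources used here, so floors of 3 counts cover counting error only, whereas the intervals of changes come from the edgeR fit and hold the spread between libraries. Blank lines between the rows of the tables were dropped. Totals ran from 7247268 to 10333933 counts. Replicates differed by more than sampling noise on every day, as chi-square over its degrees of freedom ran from 8.38 to 13.7, and each was counted. RN7SK took 2.92 to 8.17% of the counts.

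From these counts, CPM with TMM factors (0.896 to 1.07) and tests were computed in R 4.3.3 with edgeR 4.0.16 (glmQLFit, glmQLFTest) and limma 3.58.1, on genes that reached 5 counts in 2 or more libraries, with 1 mean per day and 5 residual degrees of freedom. Standard errors are the log2 fold change over the square root of F and are approximate. The scripts were tested on simulated data. Alternatives were DESeq2 1.42.0, other scalings and filters, the replicate number as a block, a fold minimum, fewer libraries and the longest transcript. Positions and exon lengths came from GENCODE 44, which held 25755 of the 28265 symbols, and promoters from RefSeq (GRCh38.p14).

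The 10 genes and all lists were chosen with earlier results of these data known. Named from each list were at most 5 called genes per comparison with the largest absolute log2 fold change and a mean of at least 5 CPM, and as closest patterns 3 genes per member whose daily mean log2 CPM ranged over at least 1. Genes named beyond these were chosen after their values were seen. Libraries of cells kept on cAMP were not analysed here.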

Additional observations from a re-analysis of the deposited data

How the results depend on the processing

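Calls of the members were compared under DESeq2, library sizes with no TMM factors, upper-quartile scaling, counts without RN7SK, 3 other filters, the replicate number as a block, a fit of only the 4 libraries compared, a minimum absolute log2 fold change of 1 and leaving out each library. Over the alternatives other than the fold minimum, 1244 of the member changes kept their direction and side of the threshold, 22 gained a call, 19 lost one and 25 turned in sign. Those that lost a call there are given beside the results, and the cause was not tested. With library size and no TMM factors the median of all genes was -0.20 from day 31 to 38, beside 0.00 with TMM factors. Between the means of days 38 and 45 and of days 23 and 31 it was -0.15, beside 0.02 with TMM factors. At those comparisons this scaling turned CRTC1 to -0.19, CRTC3 to -0.10 and NR4A1 to -0.044. CRTC1 from day 31 to 38 also turned to -0.00049 with DESeq2, -0.026 with upper-quartile factors and -0.0014 with a filter of 5 CPM. CRTC3 from day 23 to 31 turned to -0.0030 without RN7SK and -0.0034 with no filter, and CREB5 between the mean of days 23 and 31 and day 16 to -0.0020 with upper-quartile factors. None of these was called in either form.

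With a minimum absolute log2 fold change of 1, all genes called were 1183, 282, 1691 and 1202 at the 4 steps (2296, 473, 3160 and 2353 without it), 1537 for the mean of days 23 and 31 against day 16 (3258), 2822 for the mean of days 38 and 45 against that of days 23 and 31 (6274) and 3252 for day 45 against 16 (5175), and the members called were 0 from day 23 to 31 and 2 from day 31 to 38. By its construction this minimum drops the called changes below 1, which were CRTC1 (0.75) to day 23, NR4A1 (0.64) to day 31, CREB1 (-0.57), CREB5 (0.99) and NR4A1 (-0.69) to day 38, PPARGC1A (0.88) to day 45, NR4A1 (-0.87) for the mean of days 23 and 31 against day 16, and CREB1 for the mean of days 38 and 45 against that of days 23 and 31 (-0.78) and for day 45 against 16 (-0.64). Without a filter 2 members were called from day 23 to 31, NR4A3 with an edgeR adjusted p of 0.0268 being added. Same-numbered libraries did not deviate together, with correlations from -0.0766 to 0.0803 over 10 pairs of days, so the replicate numbers do not pair them. With the replicate block 2 members were called from day 23 to 31, NR4A3 included (edgeR adjusted p = 0.0198), and no other call count of the members changed, while genes called at the 4 steps were 2703, 678, 3472 and 2691.

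Leaving out 1 library in turn, genes called ran from 1350 to 2383, 206 to 646, 1764 to 3614 and 1166 to 2816 at the 4 steps, and members called from 0 to 2 from day 23 to 31 and from 3 to 6 from day 31 to 38. Values that crossed 0 ran from -0.024 to 0.28 for CRTC3 to day 23, from -0.025 to 0.075 for CREM, from -0.11 to 0.012 for CREB1 and from -0.14 to 0.16 for CRTC3 to day 31, from -0.024 to 0.48 for CRTC3 to day 45, and from -0.11 to 0.15 for CREB5 between the mean of days 23 and 31 and day 16. From day 16 to 45 they ran from -0.56 to 0.18 for NR4A1, from -0.26 to 0.047 for CREM, from -0.079 to 0.48 for CRTC1 and from -0.047 to 0.62 for CRTC2. Levels per kilobase moved by more than the SD with the longest transcript in 38 of 50 cases. With 2 libraries per day and few reads of NR4A2 at days 23 and 31, its changes there are the least precise.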
